A study of Rattus norvegicus with 16 samples.

Results

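Expression of 6 genes that earlier results of these data had singled out as high at 6 d, Sirt2, Cd9, Sema6d, Epb41l2, Sgk1 and Tmcc2, was followed in rat neural stem and progenitor cells leaving growth in fibroblast growth factor 2 (FGF-2). They are associated with oligodendrocytes to different degrees, and that association comes from the name of the set. Each gene was taken from the chip features whose annotation gave exactly 1 symbol, equal to the gene's. All 6 were found, each on 1 feature, among 12559 genes and unnamed probes tested, of which 6241 were named genes. The genes were chosen by their values at 6 d and 12 h against FGF-2, so these levels and the difference between times are given as descriptions, with no test. The comparison of platelet-derived growth factor AA (PDGF-AA) with no factor was not itself used to choose them and was tested. It is a difference between those same levels, so its outcome is not independent of the choice.

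Neocortical cells of Sprague-Dawley rat embryos, taken on embryonic day 14.5, were expanded as monolayers in FGF-2 before the experiment, a history that all groups share. The groups were PDGF-AA at 10 ng/ml for 6 d, no growth factor for 6 d, PDGF-AA at 10 ng/ml for 12 h and no growth factor for 12 h, with 4 two-colour arrays each (16 in all). The other channel of every array held RNA of cells kept in FGF-2 at 10 ng/ml. The dyes were swapped on 2 of the 4 arrays of each group, and at least 2 RNA preparations stood behind each set of 4, but which arrays share one is not given. The p-values thus cover the spread between arrays, some of which may be technical. Rat RNA was read on mouse cDNA spots.

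Values are log ratios of sample over FGF-2, centred on each array's median. Neither the base, taken as 2, nor the direction is stated in the labels. Sample over FGF-2 is likely because replication genes lay below 0 after 12 h without the mitogen, with Mcm6 at -2.59 and Top2a at -2.49. Every fold and sign below rests on these readings. Arrays of a group agreed unevenly: the correlation over all features ran as low as -0.468, for a pair with opposite dyes under PDGF-AA at 12 h. Pairs with the same dye, taken within and across groups, ran from 0.0466 to 0.727. Removing the dye effect left the lowest correlation within a group at -0.0908 with PDGF-AA at 12 h and -0.0022 with PDGF-AA at 6 d. Without factor the lowest was then 0.437 at 12 h and 0.319 at 6 d. A dye effect passed the test for 39.1% of genes and probes, and the fit carries a dye term. Array titles carry a number that the labels do not explain. The commonest one stood on 1 of 4 PDGF-AA arrays at 6 d, on 3 of 4 no factor arrays at 6 d and on all 12 h arrays.

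Oligodendrocytes arise from progenitors that carry the PDGF alpha receptor. PDGF-AA is a mitogen for these progenitors, and its withdrawal lets them leave the cell cycle and differentiate, after which they extend processes, reshape their membrane skeleton and make myelin. Among the 6 genes, Sirt2 encodes a deacetylase that acts on tubulin and is abundant in oligodendrocytes. Cd9 encodes a tetraspanin, a membrane protein that organises integrins and immunoglobulin-family partners at the cell surface. Sema6d encodes a transmembrane semaphorin that binds plexin-A1. Epb41l2 encodes protein 4.1G, which ties membrane proteins to spectrin and actin. Sgk1 encodes a kinase related to AKT that glucocorticoids and serum induce, and Tmcc2 encodes a coiled-coil protein of the endoplasmic reticulum membrane.

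The regions upstream of the 6 genes shared few short motifs. Rat promoter windows of 250 bases before to 50 bases after each start, from RefSeq on build GRCr8, were found for all 6 genes, 8 windows in all because Sgk1 has 3. The windows of Sirt2, of Cd9 and of 1 Sgk1 start are shown because they hold different motifs. Capitals mark every match on either strand to the motifs searched: GGGCGG, the GC box bound by Sp1-like factors; CCAAT, bound by nuclear factor Y; TATAAA, bound by the general initiation machinery; CAGCTG, an E-box read by basic helix-loop-helix factors; ACAAAG, the core of sites for SOX factors; GTAAACA, a forkhead motif; and TGACGTCA, the cyclic AMP response element. The Sirt2 window lies at chr1:93181222-93181521 on the plus strand, the Cd9 window at chr4:159975309-159975608 on the minus strand and the Sgk1 window at chr1:24804782-24805081 on the minus strand.
Sirt2: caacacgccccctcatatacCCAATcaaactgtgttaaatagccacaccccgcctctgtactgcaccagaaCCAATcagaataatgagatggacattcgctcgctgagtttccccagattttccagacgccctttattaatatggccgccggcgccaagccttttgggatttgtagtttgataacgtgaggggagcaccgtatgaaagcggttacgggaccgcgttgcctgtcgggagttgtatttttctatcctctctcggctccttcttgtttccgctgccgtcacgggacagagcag
Cd9: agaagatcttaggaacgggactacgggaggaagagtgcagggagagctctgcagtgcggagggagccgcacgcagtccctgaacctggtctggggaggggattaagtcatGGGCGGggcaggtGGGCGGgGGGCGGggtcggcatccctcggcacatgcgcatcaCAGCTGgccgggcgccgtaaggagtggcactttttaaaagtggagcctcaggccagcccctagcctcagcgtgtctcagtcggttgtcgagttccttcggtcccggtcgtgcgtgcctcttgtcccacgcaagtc
Sgk1: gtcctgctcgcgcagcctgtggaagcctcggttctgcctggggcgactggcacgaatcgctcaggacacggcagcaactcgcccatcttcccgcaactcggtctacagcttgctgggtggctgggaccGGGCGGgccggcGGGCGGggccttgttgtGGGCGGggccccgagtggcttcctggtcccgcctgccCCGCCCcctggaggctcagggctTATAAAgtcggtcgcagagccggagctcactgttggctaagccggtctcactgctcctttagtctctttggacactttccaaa

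A GC box was present in 33.1% of the 33469 windows in the table. It occurred 3 times in Cd9 and in Epb41l2, 4 times in Sema6d, 5 times in Tmcc2 and 4 and 2 times in 2 of the 3 Sgk1 windows, and Sirt2 had none. CCAAT, in 37.5% of all windows, was found only in Sirt2 among the 8, with 2 matches. TATAAA, in 14.2% of all windows, was found once in each of 2 Sgk1 windows. The E-box, in 15.1%, was found once in Cd9 and 2 times in Sema6d. The SOX core (18.8%), the forkhead motif (3.78%) and the cyclic AMP response element (1.83%) had no match in these 8 windows. Base composition differed between the windows, from 40.7% to 73.0% G and C, against a median of 51.7% over all windows.

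All 6 genes were above the FGF-2 level on all 8 arrays at 6 d, and on no 6 d array was any of them at or below its 12 h values under the same treatment. The separation at both treatments held for 0.748% of all genes and probes (1.66% with PDGF-AA alone, 3.62% without factor alone). The median of the 6 levels at 6 d was 1.77 with PDGF-AA and 1.47 without factor, against 0.0035 and 0.0043 over everything tested. At 12 h the median of the 6 was -0.10 with PDGF-AA and 0.11 without factor. More or fewer cells of a type, and more or less RNA per cell, cannot be told apart in such bulk samples.

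**Figure D1:**
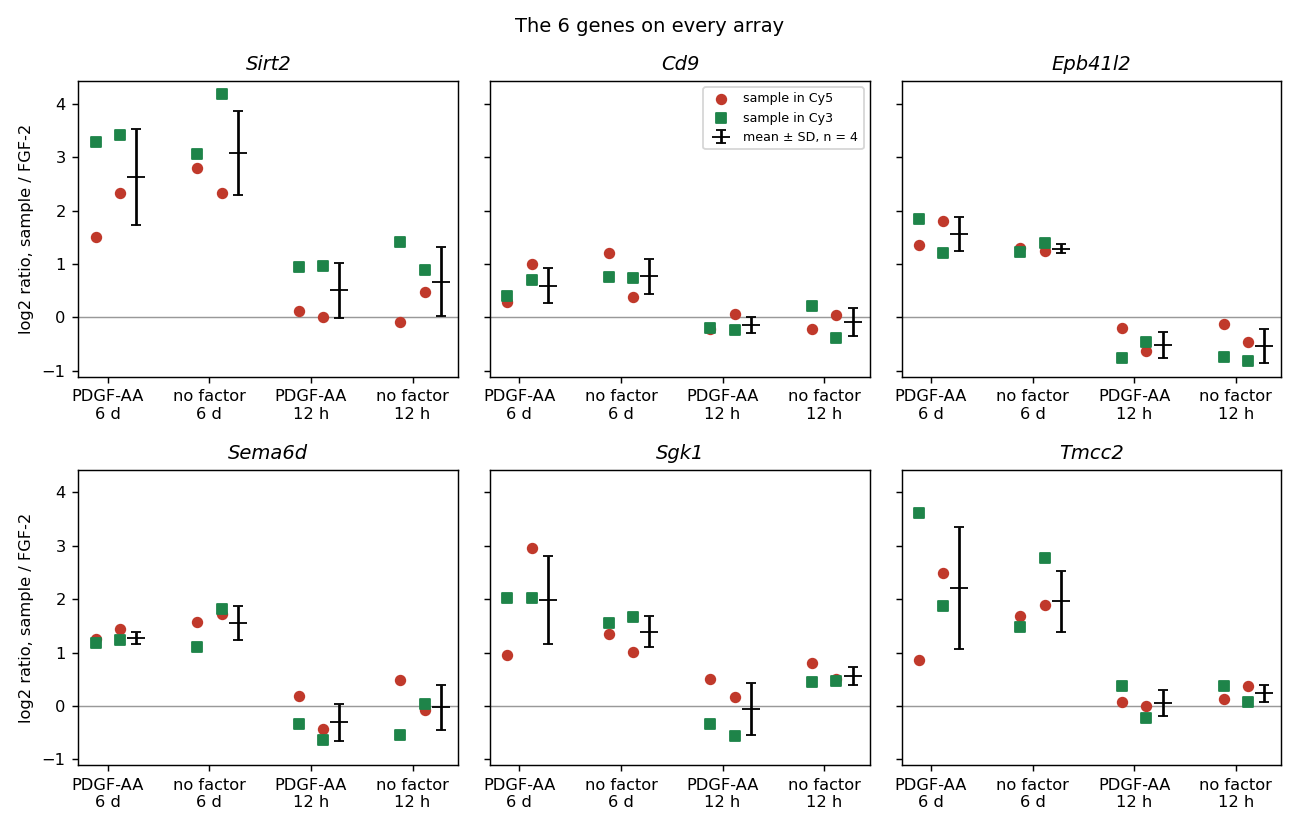
Log2 ratio of sample over FGF-2 (vertical axis) of each of the 6 genes on each array, by treatment and time (4 arrays a group). Circles have the sample in Cy5 and squares in Cy3, and bars are mean ± SD. The 6 d points lie above 0 and above the 12 h points of the same treatment in every panel, and the Sirt2 squares lie above its circles within each group.

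Sirt2 had the highest level of the 6 at 6 d under both treatments. It stood at 1.51, 2.32, 3.28 and 3.42 on the PDGF-AA arrays at 6 d, and at 2.79, 3.05, 4.17 and 2.32 on the no factor arrays at 6 d. The means were 2.63 ± 0.89 with PDGF-AA and 3.09 ± 0.79 without factor (SD, n = 4 each), or 6.20-fold and 8.49-fold the FGF-2 level. At 12 h it stood at 0.11, 0.94, 0.96 and 0.0034 with PDGF-AA and at 1.41, -0.096, 0.48 and 0.88 without factor. The lowest 6 d array of each treatment thus lay above the highest 12 h array, with PDGF-AA by 1.51 against 0.96.

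The spread of Sirt2 within groups followed the dye. With the sample in Cy5 it read lower by 1.08 ± 0.17 (SE) than with the sample in Cy3, and it was the only one of the 6 with a dye effect past the threshold (limma, adjusted p = 0.000203, against a background of 39.1% called). With the dye effect removed, its SD at 6 d was 0.39 with PDGF-AA and 0.50 without factor. The difference of 6 d from 12 h was 2.13 ± 0.24 with PDGF-AA and 2.42 ± 0.24 without factor (SE).

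Cd9 had the smallest levels of the 6 at 6 d. Its values were 0.29, 1.01, 0.39 and 0.69 with PDGF-AA and 1.20, 0.75, 0.74 and 0.38 without factor, means of 0.60 ± 0.32 and 0.77 ± 0.33 (SD, n = 4 each) and folds of 1.51 and 1.70. At 12 h it lay near the FGF-2 level, at -0.21, -0.20, -0.24 and 0.068 with PDGF-AA and at 0.20, -0.22, 0.045 and -0.39 without factor. The gap between times was narrow, with the lowest 6 d array at 0.29 and the highest 12 h array at 0.068 under PDGF-AA, and 0.38 against 0.20 without factor. The difference of 6 d from 12 h was 0.74 ± 0.19 with PDGF-AA and 0.86 ± 0.19 without factor (SE).

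Sema6d varied little among its PDGF-AA arrays at 6 d, with 1.25, 1.45, 1.19 and 1.24, and had 1.57, 1.11, 1.81 and 1.73 without factor. The means were 1.28 ± 0.11 and 1.55 ± 0.31 (SD, n = 4 each), or 2.43-fold and 2.94-fold the FGF-2 level. At 12 h the arrays scattered around 0, at 0.18, -0.33, -0.64 and -0.42 with PDGF-AA and at -0.54, 0.48, -0.073 and 0.041 without factor. The difference of 6 d from 12 h came to 1.59 ± 0.19 with PDGF-AA and 1.58 ± 0.19 without factor (SE), the closest pair of the 6 genes.

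Epb41l2 was the only one of the 6 that lay below the FGF-2 level on all 8 arrays at 12 h. At 6 d it stood at 1.35, 1.80, 1.84 and 1.21 with PDGF-AA and at 1.30, 1.23, 1.39 and 1.23 without factor, means of 1.55 ± 0.32 and 1.29 ± 0.077 (SD, n = 4 each). At 12 h it stood at -0.20, -0.77, -0.46 and -0.63 with PDGF-AA and at -0.75, -0.12, -0.46 and -0.83 without factor. Its level was thus 2.93-fold and 2.44-fold that in FGF-2 at 6 d, and 0.701-fold and 0.688-fold at 12 h. The difference of 6 d from 12 h was 2.07 ± 0.17 with PDGF-AA and 1.83 ± 0.17 without factor (SE).

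Sgk1 had the largest difference between treatments in its change over time among the 6, a difference that did not pass the test given further on. At 6 d it stood at 0.95, 2.95, 2.02 and 2.01 with PDGF-AA and at 1.35, 1.55, 1.67 and 1.00 without factor, means of 1.98 ± 0.82 and 1.39 ± 0.29 (SD, n = 4 each) and folds of 3.96 and 2.63. At 12 h it stood at 0.50, -0.33, -0.56 and 0.17 with PDGF-AA and at 0.46, 0.80, 0.51 and 0.46 without factor. All 4 no factor arrays at 12 h were above 0, while the PDGF-AA arrays lay on both sides of it. The difference of 6 d from 12 h was 2.04 ± 0.32 with PDGF-AA and 0.84 ± 0.32 without factor (SE).

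On the values as read, Tmcc2 had the widest spread of the 6 with PDGF-AA at 6 d, while Sirt2 had it in the other groups. With the dye effect removed, Sirt2 had it in none. At 12 h Sgk1 then had it with PDGF-AA (SD 0.42) and Sema6d without factor (0.34), and at 6 d Tmcc2 under both treatments (1.06 and 0.53). As read, Tmcc2 stood at 0.86, 2.50, 3.61 and 1.87 with PDGF-AA at 6 d and at 1.69, 1.49, 2.77 and 1.89 without factor. The means were 2.21 ± 1.15 and 1.96 ± 0.56 (SD, n = 4 each), with folds of 4.63 and 3.89. At 12 h it stood at 0.067, 0.38, -0.22 and 0.006 with PDGF-AA and at 0.37, 0.13, 0.37 and 0.08 without factor. The lowest PDGF-AA array at 6 d, at 0.86, lay above the highest at 12 h, at 0.38. The difference of 6 d from 12 h was 2.15 ± 0.39 with PDGF-AA and 1.72 ± 0.39 without factor (SE).

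The same arrays were low or high for several genes. With PDGF-AA at 6 d, the array named replicate 1 was the lowest of its group for 4 of the 6 genes, and its SD over all genes and probes, 0.321, was the smallest of that group. Without factor at 6 d, replicate 3 was the highest for 5 of the 6. The part of these arrays in the spread was not tested. Leaving out any single array kept every difference of 6 d from 12 h above 0, which says little for genes chosen on these values.

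Ranked over everything tested, the difference of 6 d from 12 h with PDGF-AA placed Tmcc2, Sirt2, Epb41l2 and Sgk1 at ranks 2 to 5, Sema6d at rank 10 and Cd9 at rank 142. Without factor, Sirt2 had rank 3, Epb41l2 rank 7, Tmcc2 rank 9, Sema6d rank 13, Cd9 rank 102 and Sgk1 rank 109. The median difference of the 6 genes was 2.05 with PDGF-AA and 1.65 without factor, against 0.0087 and 0.017 over everything tested. These positions describe how the genes were chosen.

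**Figure D2:**
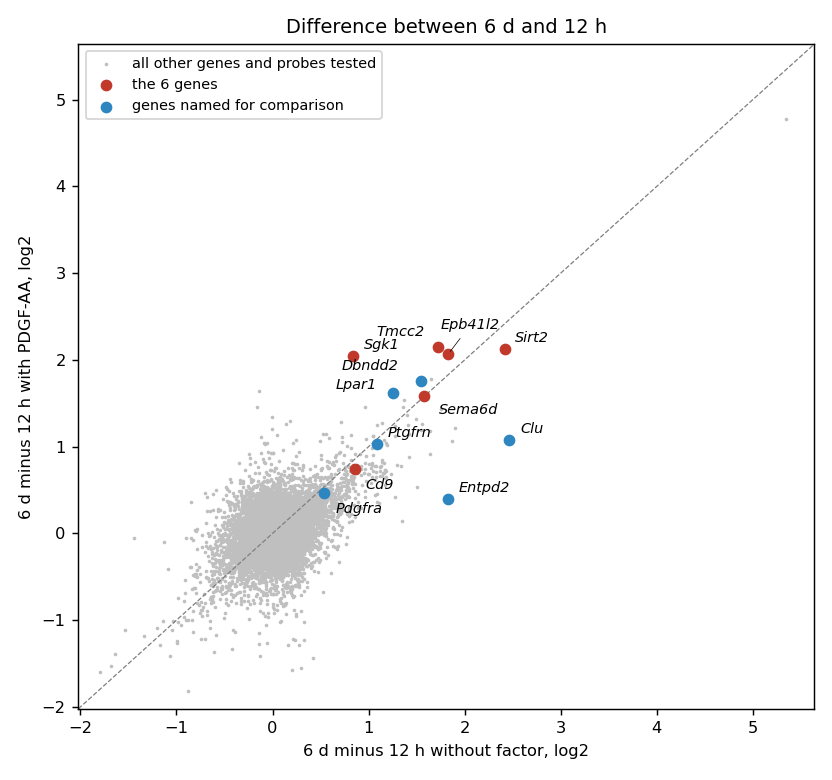
Difference of 6 d from 12 h in log2 units without factor (horizontal axis) and with PDGF-AA (vertical axis) for all 12559 genes and probes (grey), the 6 genes (red) and genes named for comparison (blue). The dashed line marks equal differences, and the point far to the upper right is an unnamed probe. Sgk1 lies above the line at 2.04 against 0.84, and Clu and Entpd2 lie below it.

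PDGF-AA and no factor did not give a difference past the threshold for any of the 6 genes, at 6 d or at 12 h. At 6 d Sirt2 differed by -0.45 ± 0.24 (SE; 95% interval -0.96 to 0.05; adjusted p = 0.620) and Sgk1 by 0.59 ± 0.32 (-0.08 to 1.26; adjusted p = 0.621), PDGF-AA minus no factor. Epb41l2 differed by 0.26 (-0.10 to 0.63), Tmcc2 by 0.25 (-0.57 to 1.07), Cd9 by -0.17 (-0.57 to 0.23) and Sema6d by -0.27 (-0.68 to 0.13), with adjusted p of 0.697, 0.909, 0.851 and 0.717 in that order. For each of the 6 the PDGF-AA and no factor arrays overlapped, where 1.31% of everything tested had all PDGF-AA arrays above all no factor arrays and 1.35% the reverse. The intervals of the 6 each include 0, and that of Sgk1 reaches up to 1.26.

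At 12 h the largest difference among the 6 was that of Sgk1, at -0.61 ± 0.32 for PDGF-AA minus no factor (SE; 95% interval -1.28 to 0.05; adjusted p = 0.896). Sema6d differed by -0.28 (-0.68 to 0.12), Tmcc2 by -0.18 (-1.0 to 0.65), Sirt2 by -0.16 (-0.67 to 0.34), Cd9 by -0.055 (-0.46 to 0.35) and Epb41l2 by 0.026 (-0.34 to 0.39). The arrays overlapped for all 6 at this time as well (1.65% of everything tested had all PDGF-AA arrays above, 0.685% all no factor arrays above).

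For Sgk1 the signs at 6 d and 12 h were opposite, and the difference between the treatments in its change over time was 1.20 ± 0.45 (SE; 95% interval 0.26 to 2.15). That value was the 8th highest of all genes and probes, with an unadjusted limma p of 0.0157 and an adjusted p of 0.995, so it did not pass. It ranged from 0.87 to 1.60 when single arrays were left out. The other 5 genes had values from -0.29 (Sirt2) to 0.43 (Tmcc2). Over everything tested, limma called 0.00796% at 6 d (1 gene, Entpd2), 0.0159% at 12 h (2) and 0% for the difference between the treatments over time. Of the 6 genes, limma called 0 in each comparison, with 0, 0 and 1 (Sgk1) at an unadjusted p under 0.05 for 6 d, 12 h and the difference over time, against 1100, 681 and 497 of everything tested.

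**Figure D3:**
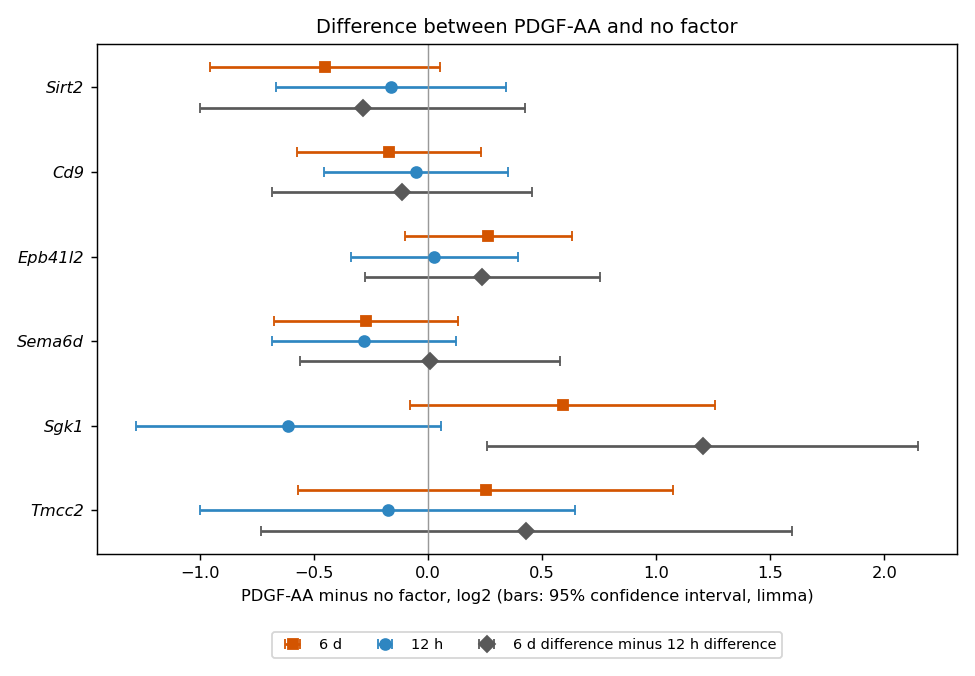
PDGF-AA minus no factor in log2 units (horizontal axis) for each of the 6 genes at 6 d, at 12 h and as the 6 d difference minus the 12 h difference, with 95% intervals from limma (n = 4 arrays a group). Of the 18 intervals, 17 include 0, and that of the Sgk1 difference over time, 0.26 to 2.15, does not.

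The differences at 6 d took other values within 1 title number. On the arrays with the commonest title number, which leave 1 PDGF-AA array at 6 d, the difference at 6 d was -0.10 for Sirt2, 0.68 for Sgk1, -0.21 for Tmcc2 and 0.0059 for Epb41l2, with 0 of the 6 called. The lone array is assumed to vary like the other groups.

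The defining genes of myelin could hardly be checked. Of 28 listed genes of myelin structure and lipid, 1 was measured: Cers2, a ceramide synthase of myelin lipid, at 0.072 with PDGF-AA and 0.31 without factor at 6 d, neither called. Of 44 other listed genes of the oligodendrocyte lineage 10 were measured. With PDGF-AA, 2 of the 10 were called higher and 0 lower at 6 d than at 12 h, against a background of 0.637% called higher (median 0.50, against 0.0087 over everything tested). Without factor, 2 were called higher and 0 lower, against a background of 1.42% called higher (median 0.37, against 0.017). Of the 10, limma called 0 for PDGF-AA against no factor at 6 d (1 at an unadjusted p under 0.05).

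The 2 genes were the same under both treatments. Dbndd2, which encodes a dysbindin-domain protein, stood at 1.28, 1.68, 2.39 and 1.76 on the PDGF-AA arrays and at 1.10, 1.32, 2.33 and 1.73 on the no factor arrays at 6 d, above all its 12 h values of -0.47 to 0.38 and -0.33 to 0.53. It rose by 1.76 ± 0.21 with PDGF-AA (SE; limma adjusted p = 0.00052) and by 1.55 ± 0.21 without factor (adjusted p = 0.000663). With title number as a term or on arrays of the commonest title number, the PDGF-AA calls of Dbndd2 and Lpar1 were lost. Lpar1, a receptor for lysophosphatidic acid, rose by 1.62 ± 0.30 with PDGF-AA (adjusted p = 0.0132) and by 1.26 ± 0.30 without factor (adjusted p = 0.0407). Its call with PDGF-AA was lost without replicate 2 of either PDGF-AA group, and its call without factor was lost under 10 of the 16 single losses of an array. Its no factor arrays at 6 d ran from -0.0064 to 2.24 and overlapped those at 12 h, -0.93 to 1.00.

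Pdgfra, the PDGF alpha receptor that marks the progenitors, had uneven values at 6 d, 0.52, 0.083, 0.29 and 2.71 with PDGF-AA and 2.07, 2.63, 1.94 and -0.60 without factor. Its level passed the test without factor at 6 d (1.51 ± 0.36 SE, limma adjusted p = 0.00912, lost without replicate 1 or 2), and its difference of 6 d from 12 h, 0.54 ± 0.51, did not. In all 5 of the 10 lineage genes were called above FGF-2 at 6 d without factor (6.99% of everything tested) and 2 with PDGF-AA (1.9%). Besides Pdgfra, Dbndd2 and Lpar1 these were Sox8, a transcription factor gene, at 0.45 and Qk, an RNA-binding protein needed for myelination, at 0.44. The Sox8 call was lost in turn without replicate 1, 2 or 3 of its group or replicate 2 of PDGF-AA at 12 h, and the Qk call without replicate 2 of its group. Without factor, these genes were already above FGF-2 on every 12 h array. Sox8 stood at 0.41, 0.41, 0.32 and 0.44, Qk at 0.28, 0.73, 0.23 and 0.51, and Pdgfra at 1.18, 0.92, 0.77 and 1.00. Neither Sox8, Qk nor Pdgfra was called in the difference of 6 d from 12 h. Of the 10 lineage genes, 0 were called below FGF-2 at 6 d under either treatment (6.73% of everything tested without factor, 1.32% with PDGF-AA). At 12 h 1 of the 10 was called below it under each treatment (6.48% and 2.35%). Without factor at 6 d Anln read -0.85, -0.31, -0.22 and -0.66, the lowest mean of the 10, and Cryab read -0.25, 0.046, -0.47 and 0.11.

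**Figure D4:**
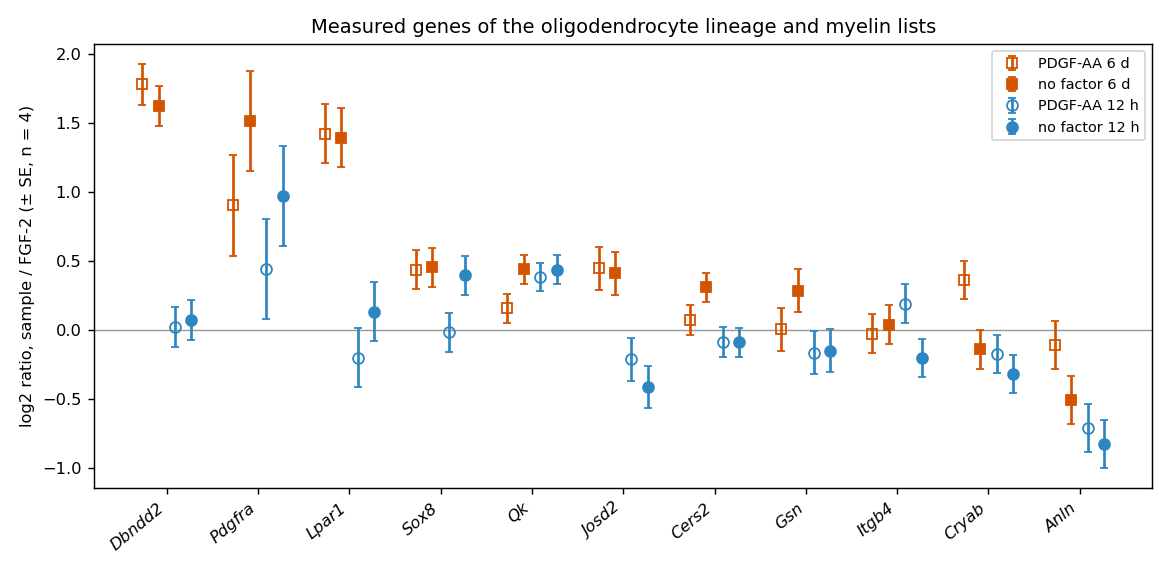
Log2 ratio of sample over FGF-2 (± SE from limma, n = 4 arrays) of the 10 measured genes of the oligodendrocyte lineage list and Cers2, the measured myelin gene, ordered by their level without factor at 6 d. Dbndd2 and Lpar1 lie above 1.3 at 6 d under both treatments and within 0.3 of 0 at 12 h.

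In each list of relatives and partners of the 6 genes, most genes did not pass the test for a difference of 6 d from 12 h. Over everything tested, limma called 0.637% higher and 0.438% lower with PDGF-AA, and 1.42% higher and 0.454% lower without factor. These shares are the background for each list below, including those of other cell types. In lists this small, 1 call already lies above them. The lists were chosen with earlier results known. Of 2 other measured sirtuin genes, Sirt1 and Sirt7, neither was called in the difference of 6 d from 12 h (-0.26 and -0.19 with PDGF-AA, -0.085 and 0.087 without factor). Of 4 genes of tubulin acetylation, limma called 0 at either treatment, with 1 (PDGF-AA) and 2 (no factor) at an unadjusted p under 0.05. They include Hdac6, the other main tubulin deacetylase gene, at -0.18 with PDGF-AA and -0.073 without factor. The tubulin acetyltransferase gene Atat1 had 0.34 ± 0.14 without factor (SE), and its PDGF-AA minus no factor at 6 d was -0.62 ± 0.14 (limma adjusted p = 0.297).

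Among 17 measured tetraspanins and partners of Cd9, 1 was higher and 0 lower at 6 d than at 12 h with PDGF-AA, and 2 were higher and 0 lower without factor. Ptgfrn, an immunoglobulin-family protein that binds Cd9 directly, rose by 1.03 ± 0.17 with PDGF-AA (SE; limma adjusted p = 0.00515) and by 1.09 ± 0.17 without factor (adjusted p = 0.00225), calls that no single loss of an array ended. The PDGF-AA call was lost without a dye term, with only the groups compared, with title number as a term, on arrays of the commonest title number and on either dye alone, and the no factor call on Cy5 arrays alone. Itgb1, the beta 1 integrin, rose by 0.60 ± 0.14 without factor (adjusted p = 0.0402), a call lost under 8 of the 16 single losses. The median of the 17 was 0.10 with PDGF-AA and 0.14 without factor.

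Among 12 measured semaphorins, plexins, neuropilins and their effectors, 0 were higher and 1 lower with PDGF-AA, and 2 were higher and 0 lower without factor. Nrp1, a co-receptor of class 3 semaphorins, rose by 0.97 ± 0.17 without factor (SE; limma adjusted p = 0.00664), with 0.60 ± 0.17 under PDGF-AA (adjusted p = 0.127). The plexin gene Plxnb2 rose by 0.60 ± 0.13 without factor (adjusted p = 0.028, lost under 5 of the 16 single losses), and Plxna2 fell by 0.78 with PDGF-AA (adjusted p = 0.00907). No single loss of an array ended the Plxna2 call. It was lost without a dye term, with only the groups compared, with title number as a term and on either dye alone. The medians were -0.11 with PDGF-AA and 0.30 without factor.

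Of 11 measured genes of the band 4.1, spectrin and ankyrin skeleton, limma called 0 with PDGF-AA (4 at an unadjusted p under 0.05), and 3 were higher without factor. Sptan1, alpha spectrin, rose by 0.63 ± 0.13, Add3, an adducin that caps actin at spectrin junctions, by 0.61 ± 0.13 and Sptbn1, beta spectrin, by 0.56 ± 0.12 (SE; limma adjusted p = 0.0226, 0.0249 and 0.028). The features of Sptbn1 disagreed in sign, and these calls were lost under 5, 5 and 8 of the 16 single losses. The medians were 0.22 with PDGF-AA and 0.29 without factor.

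Of 7 measured SGK and AKT kinases and SGK targets, limma called 0 at either treatment, with 0 (PDGF-AA) and 1 (no factor) at an unadjusted p under 0.05. Ndrg1, a substrate of SGK1, differed between 6 d and 12 h by 0.79 ± 0.22 without factor (SE; limma adjusted p = 0.085) and by 0.29 ± 0.22 with PDGF-AA. Of 6 glucocorticoid and osmotic targets, 1 was higher and 0 lower under each treatment: Slc6a6, the taurine transporter, rose by 0.63 ± 0.12 with PDGF-AA (adjusted p = 0.0182, lost under 5 of the 16 single losses) and by 0.75 ± 0.12 without factor (adjusted p = 0.00376). Of 7 genes of the TMCC family and of contacts of the endoplasmic reticulum, limma called 0 with PDGF-AA (3 at an unadjusted p under 0.05) and 1 was higher without factor, the ribosome-binding protein gene Rrbp1 at 0.95 ± 0.21 (adjusted p = 0.0299, lost under 6 single losses). The relatives Tmcc1 and Tmcc3 had 0.21 and 0.18 with PDGF-AA and 0.37 and -0.19 without factor, none called.

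Markers of other cell types moved over the same interval. Of 9 measured astrocyte genes, 1 was higher and 1 lower at 6 d than at 12 h with PDGF-AA and 3 were higher and 1 lower without factor. The gap junction gene Gja1 rose under both (1.26 ± 0.23 with PDGF-AA, 1.56 ± 0.23 without factor, SE), and Cst3 fell by 1.53 and 1.68. With PDGF-AA the Gja1 call was lost without replicate 2 of PDGF-AA at 6 d, and the Cst3 call under 5 of the 16 single losses. The chaperone gene Clu rose by 2.46 ± 0.51 without factor, a call lost under 4 of the 16 single losses (replicates 1 and 2 at 6 d, 1 and 4 at 12 h). The ectonucleotidase gene Entpd2 rose by 1.83 ± 0.17 without factor. Entpd2 was also the 1 gene called between treatments at 6 d, at -1.45 ± 0.17 PDGF-AA minus no factor (limma adjusted p = 0.00203). That call was lost without a dye term, with only the groups compared, with title number as a term, on arrays of the commonest title number and on either dye alone.

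Over the whole astrocyte list the levels at 6 d ran from -2.06 to 1.52 with PDGF-AA and from -2.22 to 3.22 without factor. Of 7 mesenchymal and matrix genes 0 were higher and 1 lower with PDGF-AA and 1 was higher and 1 lower without factor, of 5 neuronal genes 1 was lower with PDGF-AA and 1 was higher without factor, and of 6 progenitor, 4 microglial and 3 endothelial genes limma called 0 under either treatment (at an unadjusted p under 0.05, 1 progenitor gene with PDGF-AA and 2 without factor, and 0 of the others). The Schwann cell list held 1 measured gene, Gap43, shared with the neuronal list and called without factor (0.61 ± 0.15 SE, limma adjusted p = 0.0469), a call lost under 13 of the 16 single losses. The neuronal gene lower with PDGF-AA, Uchl1, and the matrix gene higher without factor, Col3a1, named after their values were seen, lost their calls under 4 and 5 of the 16 single losses. Mmp2, the matrix gene lower under both treatments, differed by -1.59 with PDGF-AA and -1.79 without factor (limma adjusted p = 0.00413 and 0.000933). No single loss of an array ended either Mmp2 call. On Cy5 arrays alone the 2 calls were lost. The PDGF-AA call was also lost with only the groups compared and with title number as a term. The part of other cell types in the rise of the 6 genes was not tested.

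Across the 16 arrays, with the dye effect removed, the 6 genes moved together mainly through the groups. Pearson's r between pairs of them ran from 0.772 (Cd9 and Tmcc2) to 0.938 (Sirt2 and Sema6d). Within groups, after each group mean was removed, it ran from -0.361 (Cd9 and Sema6d) to 0.631 (Sirt2 and Tmcc2). The arrays share the reference and the fitted dye effect, and these values are descriptions.

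Named genes outside the 6 were ranked by how close their profile over the 16 arrays lay to the mean of the 6. The closest were Fnta (r = 0.978), which encodes the alpha subunit of protein farnesyltransferase, Tprn (0.968) and the kinase gene Map4k5 (0.965). Next came the glycolipid transfer protein gene Gltp (0.962), Ptgfrn (0.955), the striatin gene Strn (0.954), Dbndd2 (0.949) and Pdhx (0.944), a component of pyruvate dehydrogenase. Fnta stood at 1.48 with PDGF-AA and 1.40 without factor at 6 d, against 0.21 and 0.27 at 12 h. Gltp stood at 1.33 and 1.45 at 6 d, against 0.081 and 0.045 at 12 h. Dbndd2, from the lineage list, and Ptgfrn, from the list of Cd9 partners, were both among these 8. The lists were chosen with earlier results known and the profiles use the same arrays, so this overlap is no separate support.

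Single genes had their own closest profiles among the named genes outside the 6. For Sirt2 these were Bace1 (r = 0.953), the beta-secretase gene, and Map4k5 (0.952). For Cd9 they were Pdgfa (0.915), which encodes the PDGF-A chain itself, and Ptgfrn (0.873). Pdgfa stood at 1.72 with PDGF-AA and 1.82 without factor at 6 d, against 0.41 and 0.33 at 12 h. For Epb41l2 they were Fnta (0.954) and Dbndd2 (0.953), for Sema6d Ermp1 (0.954) and Slc6a6 (0.948), for Sgk1 Tprn (0.917) and Idh1 (0.901), and for Tmcc2 Fnta (0.972) and Strn (0.954).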

How the data were processed

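RNA of 16 samples was hybridised to two-colour mouse cDNA chips of about 15000 spots. Per the labels' protocols, 40 µg of total RNA were labelled with Cy3 or Cy5, scanned with ScanArray and quantified with QuantArray. Each deposited value is a log ratio of a spot on an array, read here as log2. Background correction, normalisation, filters and the log base are not given in the sources used here. Their medians lay between -0.0053 and 0.0387, and spots beyond 1 unit kept their sign across dyes in 63.3% to 89.8% of cases by group. Swapped arrays were taken as turned before deposit, although a dye bias on unturned arrays would also keep its sign. Means over the 2 dyes differed between groups, as for Mcm6 at -2.59 without factor at 12 h and -0.34 with PDGF-AA at 6 d. Signal over background is not known, as intensities were not used here, and precision is limited by the number of arrays. FGF-2 RNA is treated as 1 control whose own spread is left out, and whether the same FGF-2 RNA served both times is not given.

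The table held 15151 features, 8833 with 1 symbol in the chip annotation, 606 with several and 5712 with none. Features of 1 symbol were averaged per array. The others were tested unnamed, and at least 3 arrays with a value in each group were required. Arrays were median-centred and entered 1 limma fit (version 3.58.1, R 4.3.3, with 4 groups, a dye term and eBayes). The fit was also run on simulated data with independent noise on each array. Such data cannot show how shared RNA preparations would affect the p-values. Tests were two-sided with Benjamini-Hochberg adjustment over 12559 genes and probes at 0.05. Members and gene lists were chosen with earlier results of these data known. The text names the 6 genes, of each list the called genes with the largest changes (at most 4) with unchanged genes at its defining end, and the genes most alike in profile (8 for the mean of the 6, 2 for each). The alternatives were the dye term, centring, scaling, the samples fitted, title number, missing values, averaging, robust moderation, array weights and each array left out. Arrays of a single dye were added after seeing the data.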

Additional observations from a re-analysis of the deposited data

Results flagged for a closer look

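In 2 of the 24 sets of 4 arrays (6 genes in 4 groups) 1 array stood far from the other 3 by Dixon's test, and chance alone marks about 1 set in 20. Cd9 with PDGF-AA at 12 h had replicate 4 at 0.068, above the other arrays, which lay between -0.24 and -0.20. Sgk1 without factor at 12 h had replicate 2 at 0.80, above the other arrays, which lay between 0.46 and 0.51. Neither array was beyond the 6 d values of its gene under the same treatment. Without that array the 12 h level was -0.21 for Cd9 and 0.49 for Sgk1.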

How the results depend on the processing

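The 6 genes were recomputed under 28 alternatives, 16 of which leave out 1 array. All 336 differences of 6 d from 12 h stayed above 0, the lowest being 0.522 (Sgk1 without factor). That outcome says little, because the genes were chosen on these values and their arrays did not overlap between times. Between treatments, 0 of the 6 genes were called at either time under the 28. For the difference over time, 0 were called under the 27 run for it (all but the fit of only the groups compared). The number of genes and probes called between treatments was less stable. At 12 h it was 2, and became 0 without a dye term, with scaled arrays or on arrays of either dye alone, 25 with only the groups compared, 17 with title number as a term, 18 on arrays of the commonest title number, 32 with array weights and 0 to 8 with single arrays left out. At 6 d it was 1, and became 0 without a dye term, with only the groups compared or on either dye alone, 2 with scaled arrays, and 1 to 58 with single arrays left out, 58 being without replicate 4 of PDGF-AA. With title number as a term and on arrays of the commonest title number it stayed at 1, but Entpd2 was not that 1. The difference over time called 0 under those 27. Of 28 calls of relatives and cell type markers (time and treatment differences), 15 were lost without a dye term, 15 with only the groups compared, 14 with title number as a term, 14 on arrays of the commonest title number, 6 with scaled arrays, 28 on Cy5 arrays and 21 on Cy3 arrays alone, and 15 without some single array. The cause was not tested.

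Some uncalled values changed sign. With title number as a term they were 0.065 (Sirt2), 0.14 (Cd9), -0.035 (Epb41l2) and -0.082 (Tmcc2) for the difference over time and 0.089 (Cd9), -0.0088 (Epb41l2) and -0.26 (Tmcc2) at 6 d. On arrays of the commonest title number they were 0.062, 0.11, -0.020 and -0.027 over time, and 0.055 (Cd9) and -0.21 (Tmcc2) at 6 d. At 12 h Epb41l2 was -0.045 with scaled arrays, -0.050 with array weights and -0.13 on Cy5 arrays, where Cd9 was 0.015 and Tmcc2 at 6 d -0.11. Sema6d over time was -0.19 with array weights and -0.0079 on Cy3 arrays. With single arrays left out, the ranges were -0.15 to 0.066 (Cd9) and -0.055 to 0.15 (Epb41l2) at 12 h, -0.19 to 0.68 (Tmcc2) at 6 d, and -0.27 to 0.025 (Cd9), -0.12 to 0.15 (Sema6d) and -0.016 to 0.85 (Tmcc2) over time. No paired analysis was possible because the replicate numbers were given in accession order and pair nothing.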
